A study of Mus musculus with 2 samples.

Results

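The 10 genes of heme and iron handling described here in splenic CD4+ T cells of 2 mouse strains were Hmox1, Slc40a1, Hp, Hebp1, Slc11a1, Slc11a2, Fth1, Ftl1, Tfrc and Cd163. They were taken by symbol from the platform's gene annotation, with the array's control probe sets left out. They held 18 of the 22626 probe sets that are not controls, and 15 of these carried a single symbol, for 9 of the 12393 genes so represented. The other 3 probe sets carry Ftl1 together with its pseudogene Ftl1-ps2, so Ftl1 is described separately and enters no count of genes.

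The samples were DBA/1 mice, which are susceptible to arthritis induced by glucose-6-phosphate isomerase (GPI), and C57BL/6 mice, which resist it. Mice of both strains had been immunised with GPI and were sampled on day 7, and CD4+ T cells were taken from the spleen by magnetic sorting. No unimmunised mice are among the samples. Each strain had 1 array, and the sources used here give neither the number of mice behind each RNA sample nor their age. No gene therefore carries a test or a replicate error, and the spread among mice within a strain is unknown.

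Iron is recovered in the spleen from old red cells. Haptoglobin binds free haemoglobin and Cd163 takes up the complex, heme oxygenase 1 opens the heme ring, Slc11a1 and Slc11a2 move iron out of vesicles, ferritin stores it and ferroportin (Slc40a1) exports it. Red pulp macrophages do most of this work, and the transcription factor Spic is known to be required for them. Lymphocytes take up iron mainly through the transferrin receptor Tfrc, which dividing cells make in larger amounts. Iron regulatory proteins also act on these mRNAs, on the translation of ferritin and ferroportin and on the stability of Tfrc mRNA.

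Promoter sequences of 6 members were at hand in a RefSeq table of GRCm38.p6, the C57BL/6J assembly, and those of Hmox1, Hp, Slc40a1 and Slc11a2 were not used here. The 250 bases before each annotated start were searched on both strands for TGACNNNGC, the core of the antioxidant response element that Nfe2l2 and Bach1 bind, for the E-box CACGTG, and for GAGGAA, the core bound by PU.1 and related factors such as Spic. None of these motifs overlaps another in the members' windows. Over all 32851 promoters the shares with a match were 10.2% for the first, 6.02% for the E-box and 23.3% for GAGGAA. Hebp1 is shown because its strain difference was the largest among the members with a promoter sequence, and Slc11a1 because it held the only other match. The Hebp1 window lies at chr6:135168216-135168465 on the minus strand of GRCm38.p6, and its E-box is in capitals 58 to 53 bases before the start. The Slc11a1 site lies 152 to 147 bases before the start, on the plus strand of chromosome 1, with GAGGAA in capitals.
Hebp1: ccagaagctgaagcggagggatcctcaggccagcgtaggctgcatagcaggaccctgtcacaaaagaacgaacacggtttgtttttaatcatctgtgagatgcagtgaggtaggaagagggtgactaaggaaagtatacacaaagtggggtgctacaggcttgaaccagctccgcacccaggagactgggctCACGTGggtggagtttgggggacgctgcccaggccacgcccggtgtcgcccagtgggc
Slc11a1: gtatccaggaGAGGAAcgaaggtcaa
The windows of Cd163, Ftl1, Tfrc (2 annotated starts) and Fth1 (2 annotated starts) held none of the 3 motifs.

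Of the members, 4 were at least 2-fold higher in DBA/1. Haptoglobin (Hp) was 9.25-fold, the heme-binding protein Hebp1 7.34-fold, heme oxygenase 1 (Hmox1) 3.41-fold and ferroportin (Slc40a1) 2.62-fold higher there. The ferritin heavy chain Fth1 differed 1.12-fold and the transferrin receptor Tfrc 1.31-fold. The vesicle transporters Slc11a1 and Slc11a2 and the scavenger receptor Cd163 read near the array background. No member was at least 2-fold higher in C57BL/6.

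These ratios were formed from the deposited signals after each array's median, 37.6 for DBA/1 and 38.04 for C57BL/6, had been set as a floor. Where 1 of the 2 signals sat at the floor the ratio is a bound and is given as "at least". A gene was counted only if the brighter array read it at or over that array's 75th percentile, 171 for DBA/1 and 162 for C57BL/6. Of the 9 members, 6 were counted, and 4 of the 6 were at least 2-fold higher in DBA/1. Among all 3920 counted genes this share was 3.98%, and the share at least 2-fold higher in C57BL/6, which no member reached, was 1.99%. These 4 members reached the minimum on the DBA/1 array only. The 3 members not counted had floored ratios under 2-fold, those of Slc11a1 and Cd163 being bounds. With no minimum, 4 of 9 members passed 2-fold towards DBA/1, against 3.84% of the 6936 genes above the floor. The members were chosen with earlier results of these data known, so the shares are descriptive only. After median centring the numbers over all genes moved from 156 and 78 to 122 and 95, and the members' 4 and 0 stayed. With the minimum raised to the 90th percentile only Hebp1 of the 4 was counted. By probe set, 5 of 9 counted member probe sets passed 2-fold towards DBA/1 and none towards C57BL/6, against 3.68% and 2.47% of all 5551 counted probe sets.

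Over the 9 members, 8 had a log2 ratio above 0 and 1 below, with a median of 0.70. Of the 6936 genes above the floor on at least 1 array, 60.6% had a ratio above 0, and their median was 0.10. The members' median is itself a bound, the value of Slc11a1, and it was 1.39 without a floor. Repeat measurements exist only as further probe sets for a gene. In 2325 genes the brightest pair could be compared clear of the floor, and the log2 ratios within a pair differed with an SD of 0.43, an error of 0.31 per probe set. This error covers the probes and not the mice, the sort or the labelling.

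**Figure D1:**
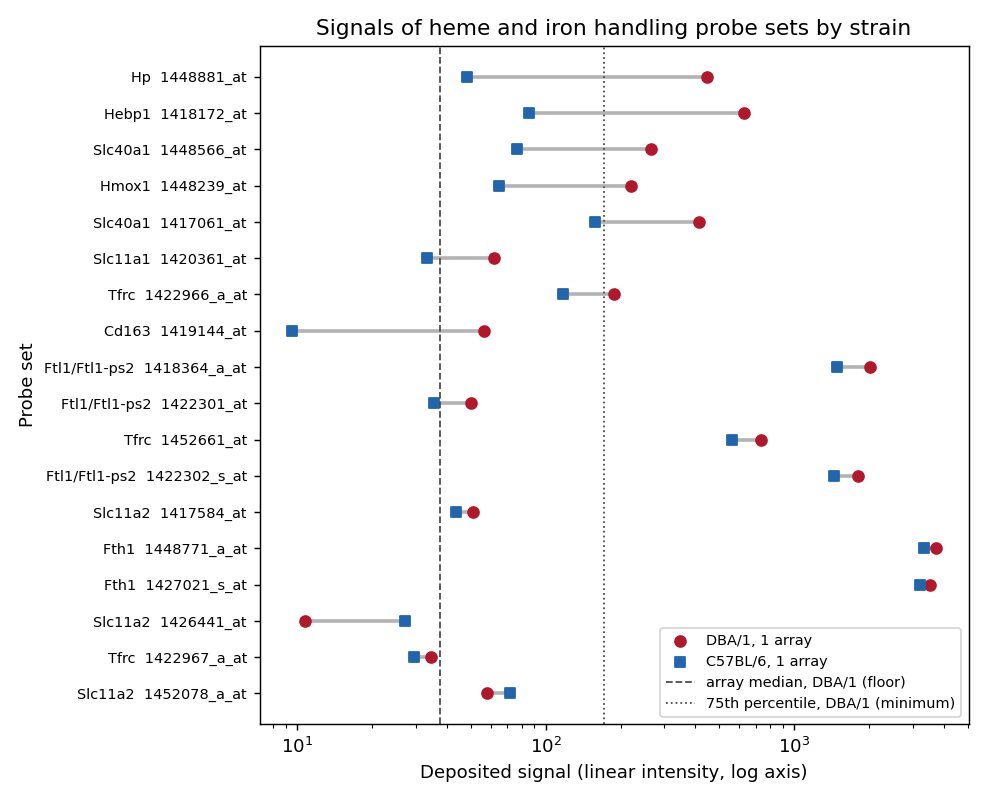
Signals of the 18 member probe sets on the DBA/1 array (circles) and the C57BL/6 array (squares), on a log axis of linear intensity, with 1 array per strain and so no error bars. The dashed line is the DBA/1 array's median and the dotted line its 75th percentile; the widest gaps above the dashed line are those of Hp (447 against 48.3) and Hebp1 (628 against 85.6), and both Fth1 probe sets nearly coincide.

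Hp encodes haptoglobin, the plasma protein that binds free haemoglobin, and is also made by maturing granulocytes. Its probe set read 447 in DBA/1 and 48.3 in C57BL/6, a log2 ratio of 3.21. The C57BL/6 signal lay just over the floor of that array. Hp ranked 8 from the top among the 3920 counted genes. With the floor at the 60th percentile its ratio was 2.63, and on log2(signal + 32) it was 2.58.

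Hebp1 is a heme-binding protein whose amino-terminal peptide is a ligand of formyl peptide receptors on phagocytes. It read 628 in DBA/1 and 85.6 in C57BL/6, a log2 ratio of 2.88, and ranked 12 among counted genes. Both signals lay over the floor, and the ratio ranged from 2.49 to 2.88 over the alternative settings. Hp and Hebp1 each had a single probe set, so no repeat measurement exists for the largest differences.

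Hmox1 encodes the inducible heme oxygenase, which turns heme into biliverdin, carbon monoxide and iron. It read 220.03 in DBA/1 and 64.5 in C57BL/6, a log2 ratio of 1.77, again from a single probe set. It ranked 43 among counted genes, and its ratio on log2(signal + 32) was 1.38.

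Slc40a1 encodes ferroportin, the iron exporter of the cell surface. One of its probe sets read 414 in DBA/1 and 158 in C57BL/6, a log2 ratio of 1.39. The other read 264 and 76.5, a log2 ratio of 1.79. Both probe sets put DBA/1 higher, and the gap of 0.40 between them was close to the SD of 0.43 between probe sets of 1 gene. It was the only member at least 2-fold apart for which a repeat existed.

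**Figure D2:**
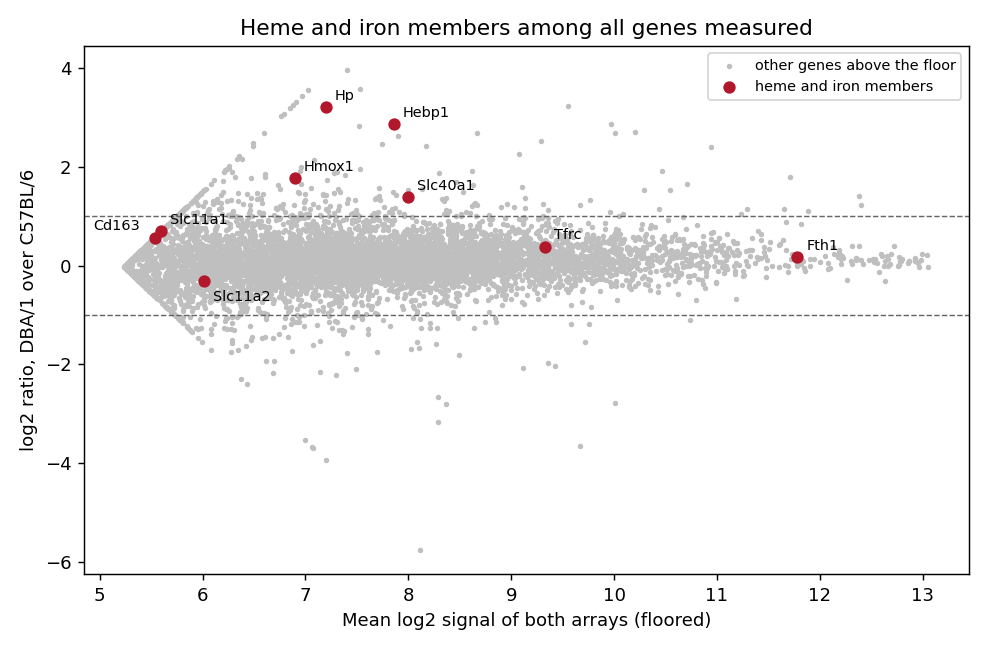
Log2 ratio of DBA/1 over C57BL/6 against the mean log2 signal of both arrays for the 6936 genes above the floor on at least 1 array (grey), with the 9 members in red and 2-fold marked by dashed lines. Hp, Hebp1, Hmox1 and Slc40a1 lie above the upper line, Tfrc and Fth1 lie between the lines at high signal, and Slc11a1, Slc11a2 and Cd163 lie at the low end.

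The storage proteins gave high signals on both arrays with small strain differences. Fth1, the ferritin heavy chain with the ferroxidase centre, read 3730.2 in DBA/1 and 3323 in C57BL/6 in its representative probe set, and 3504 and 3211 in the other. The log2 ratios were 0.17 and 0.13, under the probe set error of 0.31, and close to the all-gene median of 0.10. After quantile normalization the ratio of Fth1 was 0.01. The other Fth1 probe set carries the suffix _s_at, which marks possible cross-hybridisation, while the _a_at of the representative one marks transcripts of the same gene.

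For the ferritin light chain, 2 of the 3 probe sets shared by Ftl1 and Ftl1-ps2 were far over the floor. They read 2019 and 1809 in DBA/1 against 1489 and 1447 in C57BL/6, log2 ratios of 0.44 and 0.32. The third, which the platform also assigns to 3 Mir692 genes, read 49.8 in DBA/1 against 35.4 in C57BL/6, where it was under the floor, so DBA/1 was higher by at least 1.31-fold. All 3 put DBA/1 higher, the first 2 by less than 2-fold, and the signals of the gene and the pseudogene cannot be told apart here. Thus no ferritin probe set far over the floor reached 2-fold, while the exporter Slc40a1 did in both of its probe sets; the difference between these ratios was not tested.

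Tfrc, the receptor for iron-loaded transferrin, read 735 in DBA/1 and 562 in C57BL/6 in its representative probe set, a log2 ratio of 0.39. Another probe set read 189 and 117, a log2 ratio of 0.69. The third stayed below both floors, at 34.5 and 29.4. Both usable probe sets put DBA/1 higher by less than 2-fold. Of 9 markers of dividing cells measured, 8 also read higher in DBA/1; their median log2 ratio was 0.47 and Cdk1 lay at 1.14, and their part in the Tfrc value was not tested.

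Slc11a1 and Slc11a2 are paralogous divalent metal transporters, the former of phagosomes and the latter of endosomes and the gut. C57BL/6 mice are known to carry an Slc11a1 allele whose protein does not function, which mRNA signal does not report. The labels give no Slc11a1 allele for either strain, so no strain difference in the allele is stated here. The Slc11a1 probe set read 61.6 in DBA/1 and, under the floor, 33.3 in C57BL/6, so DBA/1 was at least 1.62-fold higher. Slc11a2 was the only member with a lower value in DBA/1: its representative probe set read 58.1 against 71.8, a log2 ratio of -0.31. Another Slc11a2 probe set read 51.1 against 43.7, a log2 ratio of 0.23, and the third was under the floor on both arrays at 10.7 and 26.99. The direction for Slc11a2 thus depended on the probe set, with both ratios within the probe set error.

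Cd163, the macrophage receptor for haptoglobin bound to haemoglobin, read 56.5 in DBA/1 and 9.49 in C57BL/6. With the C57BL/6 side at the floor it was at least 1.48-fold higher in DBA/1. As deposited the signals differed 5.95-fold, but MAS5 signals under the array median are unstable, and its log2 ratio moved from 0.57 with the floor to 2.57 without. The ligand Hp and its receptor Cd163 were thus both higher in DBA/1 in value, Hp far over the floor there and Cd163 little over it.

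Other genes of heme and iron handling showed no common sign of the ratio. Of 65 such genes outside the members, 56 had a probe set of 1 symbol, 38 were above the floor on at least 1 array and 27 were counted. Of the 27, 4 were at least 2-fold higher in DBA/1, namely Alad, Lcn2, Ltf and Spic, and none was at least 2-fold higher in C57BL/6. Among all 3920 counted genes these shares were 3.98% and 1.99%. The other 23 were within 2-fold. The 38 genes divided into 19 above and 19 below a ratio of 0, with a median log2 ratio of 0.02, and into 18 and 20 after median centring, quantile normalization or lowess.

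Lcn2 (lipocalin 2, which captures bacterial iron carriers) read 3016 in DBA/1 and 462 in C57BL/6, 6.53-fold higher in DBA/1. Ltf (lactoferrin, an iron-binding granule protein) read 2609.8 against 406, so it was 6.43-fold higher in DBA/1. Spic read 177 in DBA/1 and 39.3 in C57BL/6, 4.50-fold, in a probe set whose suffix marks possible cross-hybridisation. Its other probe set read 86.7 in DBA/1 and 17.5 in C57BL/6, at least 2.28-fold higher in DBA/1 with the latter at the floor. All 3 genes are also markers of neutrophils or red pulp macrophages, and without genes on marker lists of other cells Alad alone of the 4 was counted. Without the _s_at and _x_at probe sets, which can cross-hybridise, Alad, Lcn2 and Ltf were left. Leaving out _a_at probe sets too, which mark transcripts of 1 gene, left Ltf.

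In heme synthesis, Alad stood beyond 2-fold. Alad, whose product (delta-aminolevulinate dehydratase) joins the first precursors of the ring, read 344 in DBA/1 and 129 in C57BL/6, a log2 ratio of 1.42. Alas1, the first enzyme outside the erythroid lineage, read 168 and 105 (log2 ratio 0.68), and the erythroid Alas2 read 173 and 191 (-0.14). The last enzyme, ferrochelatase (Fech), lay at -0.23 in an _s_at probe set. Its other probe sets above the floor lay at -0.19 and -0.67. Of the 8 enzymes measured 3 were above 0 and 5 below, and none of the other 7 reached 2-fold.

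In heme breakdown and transport, 6 of 7 genes above the floor had ratios above 0 as deposited and 5 of 7 after each of the 3 scalings, with none at 2-fold. The constitutive heme oxygenase Hmox2 read 435 in DBA/1 and 286 in C57BL/6, a log2 ratio of 0.60, beside 1.77 for the inducible Hmox1. The biliverdin reductases Blvra and Blvrb, which act on the product of both, lay at 0.32 and 0.48. The lysosomal heme transporter Slc48a1 lay at 0.60 in its representative probe set, and another of its probe sets read lower in DBA/1, at 68.2 against 102. Hemopexin (Hpx) and the heme exporter Flvcr1 were under the floor on both arrays.

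In iron storage and release, the ferritin receptor Ncoa4 lay at 0.25, and the iron chaperones Pcbp1 and Pcbp2 at -0.20 and -0.33. Pcbp2 read 1816 in DBA/1 and 2287 in C57BL/6. The partners of ferroportin in iron export, hephaestin (Heph) and ceruloplasmin (Cp), were under the floor on both arrays in their representative probe sets. Of 7 mitochondrial genes 5 were below 0, with Slc25a28 hardly so at -0.004. Isca2 (log2 ratio 0.74) and Iscu, the scaffold of iron-sulfur clusters, were above it. Iscu read 688 in DBA/1 against 455 in C57BL/6 (log2 ratio 0.60).

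Among regulators, Bach1, the heme-sensing repressor of Hmox1, read 389 in DBA/1 and 209 in C57BL/6, a log2 ratio of 0.89. Nfe2l2, the activator that competes with it, lay at -0.25. The iron regulatory protein genes Aco1 and Ireb2 lay at -0.56 and -0.21. The Aco1 value came from an _x_at probe set, and its other probe set read higher in DBA/1, at 67.5 against 52.1 (0.38). Hif1a read 1171 and 946 (0.31), and hepcidin (Hamp) stayed below both floors. Apart from Spic no regulator reached 2-fold.

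**Figure D3:**
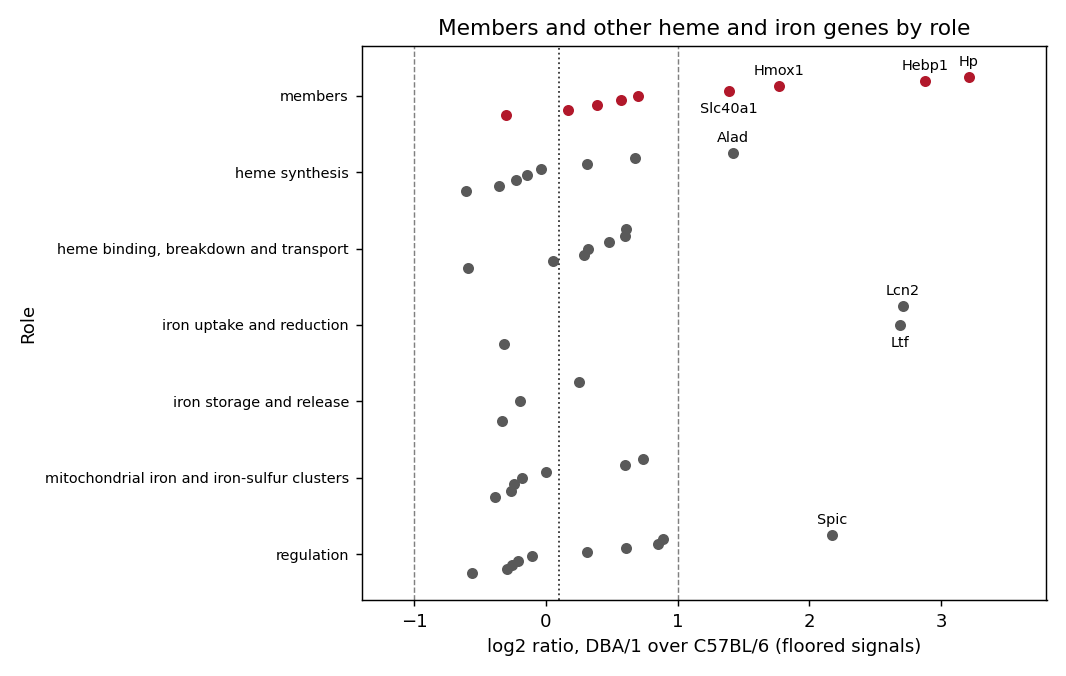
Log2 ratios of DBA/1 over C57BL/6 for the 9 members (red, top row) and for the 38 other heme and iron genes above the floor on at least 1 array, by role, 1 point per gene; dashed lines mark 2-fold and the dotted line the all-gene median of 0.10. Names are given beyond 2-fold: 4 members, and Alad, Lcn2, Ltf and Spic, all higher in DBA/1.

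Markers of several other spleen cell types were also higher in DBA/1, while CD8 T cell and NK cell markers were lower and erythroid markers went both ways. T cell markers differed little, with 7 of 7 measured genes above the floor on both arrays, log2 ratios from -0.30 (Cd28) to 0.09 and Cd4 at 913 and 857. Of the 7, 2 were above 0 as deposited, 1 after median centring and none after quantile normalization or lowess. Their summed signal was 11136 in DBA/1 and 11698 in C57BL/6. In bulk RNA, fewer cells of a type and less RNA per cell cannot be told apart. Marker genes were counted without a minimum signal, a rule by which 3.84% of the 6936 genes passed 2-fold towards DBA/1 and 1.9% towards C57BL/6.

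Neutrophil markers were higher in DBA/1 in 11 of 11 genes above the floor and 2-fold or more in 10. Their median log2 ratio was 1.41, and Lcn2 had the largest, 2.71. S100a9 had the highest signal, 8708 in DBA/1 and 3269.8 in C57BL/6. The list's summed signal was 34229 in DBA/1 and 10633 in C57BL/6, and of the 12 measured markers only Cxcr2 stayed below both floors. The log2 ratios of Hp (3.21) and Hebp1 (2.88) were larger than that of every measured marker of this list. For both genes this depended on how low signals were treated. With the floor at the 60th percentile the ratio of Hp was 2.63, under the main value of Lcn2. On log2(signal + 32) Hp was 2.58 and Hebp1 2.49, also under that value. Marker ratios were not recalculated under these settings. The part of the neutrophil list in the Hp and Hebp1 values was not tested.

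Monocyte and macrophage markers were higher in DBA/1 in 10 of 10 genes above the floor, with a median of 0.88. As deposited 3 of them were 2-fold or more higher, and C1qc fell under 2-fold after each of the 3 scalings (0.93 to 0.95). Lyz2 (lysozyme) was the largest, at 1.65, and the highest in signal, at 2974 in DBA/1 and 948 in C57BL/6. Their summed signal was 5932 in DBA/1 and 2649.7 in C57BL/6. Marco and Siglec1, which mark marginal zone macrophages, were under the floor on both arrays. Of the red pulp macrophage markers 4 of 6 measured were above the floor, and all 4 were higher in DBA/1, with Spic at 2.17, Cd5l at 1.09, Adgre1 at 0.90 and Vcam1 at 0.81. Vsig4 and Epor were under the floor on both arrays. The summed signal of the 4 was 1037 in DBA/1 and 505 in C57BL/6. The ratios of Hmox1 (1.77) and Slc40a1 (1.39) lay over the median of 0.99 of this short list and over Cd5l, Adgre1 and Vcam1. Of its markers above the floor only Spic was higher, with a C57BL/6 signal of 39.3, just over the floor. The other Spic probe set gave a log2 ratio of at least 1.19. The part of this list in the Hmox1 and Slc40a1 values was not tested.

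Erythroid markers showed no shared direction, with 4 of 7 above 0 and 3 below, none at 2-fold, a median of 0.18 and summed signals of 2699.9 in DBA/1 and 2432 in C57BL/6. Tfrc is itself on that list. Car1 was its largest in size at 0.91, Car2 its highest in signal at 1014 and 898, and the globin gene Hbb-b2 lay at -0.74. Hbb-b2 read 39.96 in DBA/1, just over the floor, and 66.9 in C57BL/6. Epb42 and the Hba-a1 probe set of 1 symbol were under the floor on both arrays. B cell markers (7 of 7 higher in DBA/1, all at least 2-fold, with Blk at least 2.85-fold) and dendritic cell markers (6 of 6 higher, 4 at least 2-fold, led by Fscn1 at 1.70) were also displaced to DBA/1. The 2 measured CD8 T cell markers were lower in DBA/1, with Cd8b1 at least 5.30-fold higher in C57BL/6. The 2 NK cell markers above the floor, led by Nkg7 at -1.92, were also lower in DBA/1. The part of these lists in the members' values was not tested.

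**Figure D4:**
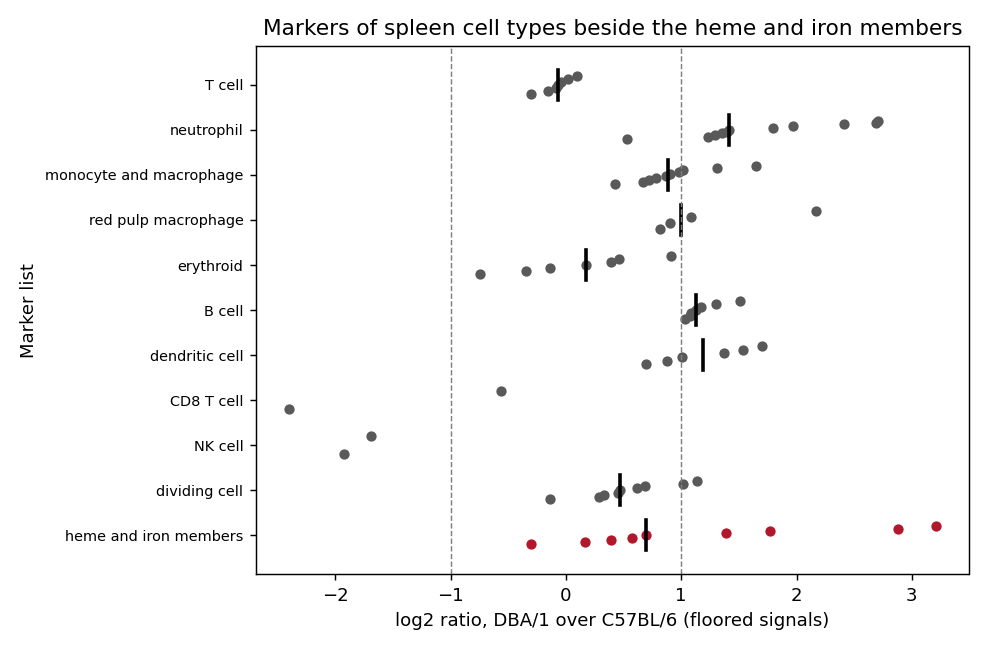
Log2 ratios of DBA/1 over C57BL/6 for marker genes of spleen cell types above the floor on at least 1 array (grey) and for the 9 members (red), 1 point per gene, with black bars at the median of lists of more than 2 genes and dashed lines at 2-fold. T cell markers sit between -0.30 and 0.09, neutrophil markers have a median of 1.41, erythroid markers lie on both sides of 0, and Hp and Hebp1 lie to the right of all marker genes shown.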

How the data were processed

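RNA of splenic CD4+ T cells was measured on 2 arrays, 1 per strain, from 3 µg of total RNA labelled from an oligo(dT) primer, per the labels' protocols. The deposited values are linear intensity values of 22690 probe sets (64 of them controls), made by the authors with MAS5 per the submitters' processing notes, with version and scaling target not given in the sources used here. Signals were used as deposited. A platform annotation gave 1 symbol to 20380 probe sets, several to 691 and none to 1555, and all 10 member symbols were found in a RefSeq gene table. For each gene the probe set of highest mean log2 intensity stood for it. Signals under an array's median were set to it, and log2 ratios of DBA/1 over C57BL/6 were taken with numpy 2.4.6 and pandas 2.3.3. Genes were counted by size alone, at 2-fold, with the higher signal at or over the 75th percentile. The number of arrays limits the precision of every value. Counting was run on simulated data with large changes placed in bright probe sets and little noise. That run checks the counting code and cannot measure the error of these data. Members, gene lists and settings were chosen with earlier results of these data known. All members were named with each probe set; of the other heme and iron genes those beyond 2-fold and the highest signal of each role were named, and of marker lists the largest ratio and, for neutrophil, macrophage and erythroid lists, the highest signal. Further genes, such as Fech, Alas1, Bach1, Blvra and Aco1, were named for their role after their values were seen. Alternatives were 3 scalings, 4 treatments of low signals, 3 minimum signals, the mean over probe sets and omission of probe sets with the suffixes _s_at, _x_at or _a_at.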

Additional observations from a re-analysis of the deposited data

How the results depend on the processing

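No paired analysis was possible because each strain had 1 array, and no array could be left out. The numbers of members at least 2-fold apart (4 higher in DBA/1, 0 in C57BL/6) and of member probe sets (5 and 0) were within 1.5 times of these values under every setting run except a minimum at the 90th percentile, which left 1 member and 1 probe set. The members' median log2 ratio of 0.70 was 1.39 both with no floor and with it at the 25th percentile, 1.50 with it at the 60th percentile, 1.09 on log2(signal + 32) and 1.04 without _s_at, _x_at and _a_at probe sets. Under the first 2, Cd163 left the floor; at the 60th percentile 6 members remained in the median; without the suffixed probe sets Fth1 had none left. The number of other heme and iron genes at least 2-fold higher in DBA/1, 4, was 2 with the minimum at the 90th percentile, 1 without _s_at, _x_at and _a_at probe sets and 1 without genes on marker lists of other cells, an alternative chosen after seeing the data. Leaving out only _s_at and _x_at probe sets, since _a_at marks transcripts of the same gene, gave 3 such genes, 4 and 0 members and a members' median of 0.70; this too was chosen after seeing the data. Including the Ftl1 and Ftl1-ps2 probe sets, also chosen after seeing the data, left the member counts at 4 and 0. Single members kept their sign except Slc11a2, which was 0.23 without its _a_at probe set. Over the settings the log2 ratio of Hmox1 ranged from 1.38 to 1.77, of Slc40a1 from 1.23 to 1.59, of Hp from 2.58 to 3.21, of Fth1 from 0.01 to 0.17 and of Tfrc from 0.25 to 0.54. Signal over background limits Cd163, Slc11a1 and Slc11a2, whose signals lay within 2-fold of the floor on every side above it.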

Other observations

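Some of the genes that Nfe2l2 is known to activate beside Hmox1 were listed after the values were seen. The list is not complete, and the part of Nfe2l2 in the Hmox1 value was not tested. Of 18 listed genes 16 had a probe set of 1 symbol and 9 were above the floor on at least 1 array. Their log2 ratios ran from -0.66 to 0.80, with a median of -0.06, 4 above 0 and 5 below, and none was 2-fold apart; after each of the 3 scalings 3 were above 0 and 6 below. Gclm, a subunit of the enzyme that starts glutathione synthesis, read 87.9 in DBA/1 and 139 in C57BL/6 (-0.66), thioredoxin reductase Txnrd1 read 235 and 295 (-0.33), and Pgd of the pentose phosphate route read 771 and 442 (0.80). Nqo1, Srxn1 and Slc7a11 were under the floor on both arrays.

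The array's 3' to 5' control probe sets for Tfrc, which are not among the members' probe sets, read 113 in DBA/1 and 95.6 in C57BL/6 at the 3' end of the transcript. At the middle they read 25.6 and 26.7, and at the 5' end 22.1 and 23.03, all 4 under the floor.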
